A study of Mus musculus with 17 samples.

Results

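The expression of 10 genes of the extracellular matrix was examined in mouse macrophages: the lysyl oxidase family (Lox, Loxl1, Loxl2, Loxl3 and Loxl4) and the secreted proteins Fn1, Tgfbi, Thbs1, Spp1 and Vcan. They are 10 of the 24453 gene models measured, and were chosen by the measured loss of Lox RNA in the libraries labelled JunDKO, so the difference of JunDKO from its control is a description below and carries no test. PolyA RNA-seq of 13 libraries was used. Of these, 8 came from iBMDMs, male C57Bl/6EiJ bone marrow cells immortalised with mutant BRAF and Myc (passage 3-8), that all carried Cas9 and EGFP and received vehicle. Lentiviral guides against Atf3 (Atf3KO), Jun (JunKO) or Jund (JunDKO), or a scramble control (Scramble; zsGreen in the library titles), were delivered and cells were sorted on the fluorescent protein of the virus, so each group is a sorted pool and holds 2 libraries. The other 5 came from thioglycollate elicited macrophages (TGEMs), cells flushed from the peritoneal cavity of 8-week male mice 3 days after injection and then cultured. C57Bl/6EiJ TGEMs gave 1 vehicle (PBS) library and 1 library after 1 h of KLA, a purified lipid A (Kdo2 lipid A) that activates TLR4; for Balb/cJ there was 1 vehicle library and there were 2 with KLA.

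Lysyl oxidases are secreted copper enzymes that oxidise lysines of collagen and elastin, which starts the covalent crosslinking of their fibres. Fibronectin (Fn1) is an adhesive glycoprotein that integrins assemble into fibrils, and transforming growth factor beta induced protein (Tgfbi) binds both integrins and collagen. Thrombospondin 1 (Thbs1) is a matricellular protein that binds CD36 and CD47 and can activate latent TGF-beta. Osteopontin (Spp1) is a secreted phosphoprotein made in large amounts by many activated macrophages, and versican (Vcan) is a large chondroitin sulfate proteoglycan that binds hyaluronan. AP-1 is a dimer of basic leucine zipper proteins, among them Atf3, Jun and Jund, and the study removed each of these 3 in turn to ask which genes depend on it.

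On mm10 (GRCm38) the files place Lox on chromosome 18 from 52516060 to 52529867 (minus strand), Loxl1 on chromosome 9 from 58287723 to 58313212 (minus), Loxl2 on chromosome 14 from 69609476 to 69695834 (plus), Loxl3 on chromosome 6 from 83034224 to 83052564 (plus) and Loxl4 on chromosome 19 from 42592279 to 42612806 (minus). Fn1 lies on chromosome 1 from 71585473 to 71653234 (minus), Tgfbi on chromosome 13 from 56609603 to 56639339 (plus), Thbs1 on chromosome 2 from 118111876 to 118127133 (plus), Spp1 on chromosome 5 from 104435111 to 104441053 (plus) and Vcan on chromosome 13 from 89655310 to 89742512 (minus). The end of Loxl3 overlaps 1298 bases of Htra2 on the opposite strand, and as strand use in counting is not given in the sources used here, reads of Loxl3 and Htra2 there cannot be told apart.

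Levels are RPKM, which scales the reads of a gene by its exonic length and by the depth of the library. Library depth, recovered from the smallest steps of the values, spanned 1553296 reads (JunDKO replicate 1) to 18444368 reads (JunDKO replicate 2). RNA of the targeted gene was lower in JunDKO only. Jund measured 6.94 and 6.07 RPKM in JunDKO against 9.19 and 8.33 in Scramble, whereas Jun measured 26.2 and 20.5 RPKM in JunKO against 17.6 and 18.5, and Atf3 measured 154 and 169 RPKM in Atf3KO against 80.7 and 77.4. A read count over a gene with small edits does not show whether its protein is made, and groups are called here by their labels. The paper reports western blots as its check of knockout efficiency, and a substantial loss of Jun ChIP-seq peaks in Jun knockout iBMDMs. The Atf3KO libraries stood apart: they held reads of 10425 and 10631 gene models, against 11884 to 12533 in the other iBMDM libraries, and their fold changes over Scramble followed the GC content of the transcripts (Spearman's rho 0.50 across 10617 models, which are not independent replicates). Atf3KO replicate 2 also bears a later date in its title than the other 7 iBMDM libraries. In Atf3KO replicates 1 and 2 Jund measured 22.6 and 83.0 RPKM and Jun 17.9 and 46.2, so their RNA differed between these 2 libraries. All 8 macrophage markers listed (Adgre1, Csf1r, Cd68, Lyz2, Itgam, Mertk, Spi1 and Fcgr1) had reads in every library.

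RefSeq promoters of GRCm38.p6 were at hand for Spp1, Tgfbi, Vcan and Loxl4, and those of Spp1 and Tgfbi are shown because both genes measured least RNA, among the iBMDM groups, in the JunDKO libraries. They are the 250 bases before the annotated start, 5′ to 3′, and capitals mark matches to the motifs searched on both strands.
Spp1, chr5:104434861-104435110, plus strand: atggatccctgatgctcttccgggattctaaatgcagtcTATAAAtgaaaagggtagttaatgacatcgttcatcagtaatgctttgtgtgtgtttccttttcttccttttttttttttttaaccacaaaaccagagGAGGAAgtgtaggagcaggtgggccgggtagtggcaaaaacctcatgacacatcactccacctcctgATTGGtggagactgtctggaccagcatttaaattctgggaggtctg
Tgfbi, chr13:56609336-56609585, plus strand: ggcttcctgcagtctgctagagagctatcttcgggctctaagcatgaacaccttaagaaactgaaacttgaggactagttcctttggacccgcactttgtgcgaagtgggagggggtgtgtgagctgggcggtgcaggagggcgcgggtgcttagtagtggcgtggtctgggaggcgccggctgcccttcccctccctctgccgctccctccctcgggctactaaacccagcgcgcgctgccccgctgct
In Spp1 the matches were TATAAA (211 bases before the start; in 12.37% of 32851 promoters of this length), GAGGAA, the core bound by the macrophage factor PU.1 (113 bases before; 23.25%), and CCAAT read on the other strand (46 bases before; 33.85%). The AP-1 site TGACTCA, which reads TGAGTCA on the other strand, was in 4.46% of promoters, the related site TGACGTCA in 1.55%, and the E-box CACGTG in 6.02%. None of these 3 is in the promoter windows of Spp1 or Tgfbi, nor in a second annotated Spp1 promoter (chr5:104435942-104436191), Vcan or Loxl4; this says only that these letters are not in these windows.

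The 10 genes spanned a wide range of levels. Spp1 measured 455 to 17020 RPKM and ranked 2nd to 5th of all gene models in every iBMDM library, whereas Vcan did not reach 1 RPKM in any library. Lox reached 16 RPKM in the Scramble, Atf3KO and JunKO libraries, Fn1 in the TGEM libraries, Tgfbi in 4 libraries and Thbs1 in 3. Loxl3 was at 2.75 to 9.69 RPKM throughout. Loxl1, Loxl2 and Loxl4 stayed below 2 RPKM everywhere.

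**Figure D1:**
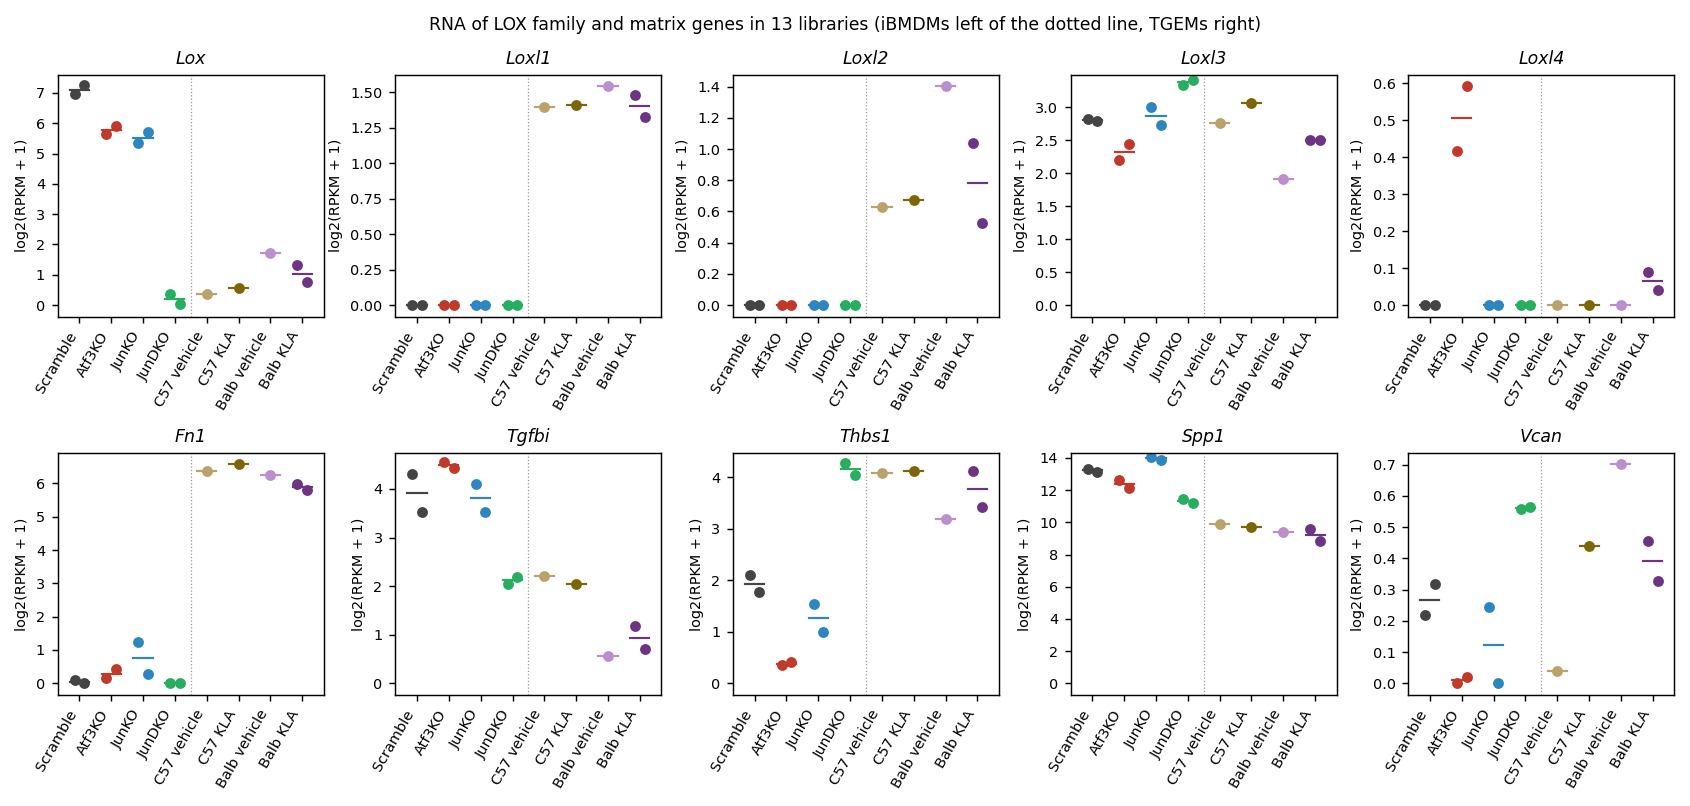
RNA level as log2(RPKM + 1) of each of the 10 genes in the 13 libraries. Each point is 1 library and each line the mean of its group; the vertical scale differs between genes. Lox is at 39.9 to 151 RPKM in 6 iBMDM libraries and below 2.3 RPKM in the JunDKO and TGEM libraries, and Fn1 shows the opposite split between the cell kinds, with 54.5 to 95.2 RPKM in TGEMs and at most 1.35 RPKM in iBMDMs.

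Lox, the founding lysyl oxidase, was an abundant RNA of the control iBMDMs. It measured 124 and 151 RPKM in Scramble, 48.5 and 58.9 with Atf3KO, 39.9 and 50.9 with JunKO, and only 0.288 and 0.0120 with JunDKO. Scramble was above every other library, the Atf3KO and JunKO libraries overlapped each other, and JunDKO was below all other iBMDM libraries. The JunDKO values rest on 3 reads in 19997664, against 2220 reads in 3641530 in Scramble, a ratio of pooled read rates of 4064 (exact 95% interval 1389 to 19720, counting error only) that is set by the deep JunDKO replicate 2; JunDKO replicate 1 alone, with 2 reads, gave 473 (131 to 3912). On the log2(RPKM + 1) scale the fitted difference from Scramble was -6.91 ± 0.22 (SE, n = 2 per group) in JunDKO, -1.34 ± 0.22 in Atf3KO and -1.58 ± 0.22 in JunKO. All 3 share the Scramble libraries in which Lox was picked and are given without a test. With the GC trend of the libraries removed, the difference in Atf3KO was -0.77. Other markers differed in JunDKO beside Lox: S100a8, 1 of 6 neutrophil genes listed, measured 34.8 and 33.2 RPKM in Scramble and 0 in both JunDKO libraries (S100a9, Ly6g, Retnlg, Ngp and Camp had 0 reads in all 8 iBMDM libraries), and of the 8 macrophage markers 4 (Csf1r, Cd68, Mertk and Fcgr1) were higher and 3 (Adgre1, Lyz2 and Itgam) lower in both JunDKO libraries than in both Scramble libraries, with Spi1 overlapping. Their part in the level of Lox was not tested. Atf3KO and JunKO, which do not involve Scramble, differed by 0.24 ± 0.22 in Lox (limma-trend adjusted p = 0.42), and by 0.76 with the GC trend removed (adjusted p = 0.0408; range over 16 alternatives 0.0408 to 0.872).

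The rest of the family behaved unlike Lox in iBMDMs. Loxl1 and Loxl2 had 0 reads in all 8 iBMDM libraries, 38692024 reads in all, which allows levels of up to 0.0233 and 0.0150 RPKM. Loxl4 measured 0.336 and 0.510 RPKM in Atf3KO (8 and 20 reads) and had 0 reads in the other 6 iBMDM libraries, so its read rate in Atf3KO was at least 21.7-fold higher than there, taking 3 reads over those 6 libraries as the bound (at least 6.91-fold without the deep JunDKO replicate 2). Loxl4 was too low to be tested, and this bound covers counting error only. Loxl3 was the other member of the family with reads in every library: 6.04 and 5.94 RPKM in Scramble, 3.61 and 4.45 under Atf3KO, 6.98 and 5.64 under JunKO, and 9.10 and 9.69 under JunDKO. The Loxl3 libraries of JunDKO were the highest and those of Atf3KO the lowest. Its fitted difference from Scramble was 0.57 ± 0.21 in JunDKO (no test), -0.48 ± 0.21 in Atf3KO (adjusted p = 0.102) and 0.06 ± 0.21 in JunKO (adjusted p = 0.981). With the GC trend removed, the Atf3KO difference was -0.74 (adjusted p = 0.0108; range over 16 alternatives 0.0108 to 0.237).

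Spp1 was the most abundant of the 10 genes. It measured 10342 and 8932 RPKM in Scramble, 6314 and 4407 in Atf3KO, with 17020 and 15025 in JunKO but 2767 and 2394 in JunDKO. No 2 iBMDM groups overlapped, in the order JunKO, Scramble, Atf3KO, JunDKO. Spp1 took 2.60% to 2.89% of the exonic reads in JunKO and 0.418% to 0.478% in JunDKO. It fell by 0.87 ± 0.22 in Atf3KO on the log2 scale (n = 2 per group, limma-trend adjusted p = 0.0171), a result that was lost in 7 of 16 alternatives (adjusted p from 0.00327 to 0.282 over all), among them the removal of the GC trend (-0.42, adjusted p = 0.114) and leaving out Atf3KO replicate 2, Scramble replicate 1 or Scramble replicate 2 (adjusted p = 0.0579 to 0.0937). In JunKO its difference from Scramble was 0.73 ± 0.22 (adjusted p = 0.386). Set against each other, Atf3KO was lower than JunKO (-1.60 ± 0.22, adjusted p = 0.00232), which failed the threshold in 1 of 16 alternatives, the fit without a filter on low values (adjusted p = 0.0589; range over all 2.93e-04 to 0.0589). In JunDKO the difference from Scramble was -1.90 ± 0.22, given as a description. With quantile normalization it was -0.87, which leaves Spp1 short of a 2-fold change. Then 2 members, not 3, were past the 2-fold and 16 RPKM limits of a call.

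Thbs1 ordered the groups differently. It measured 3.29 and 2.41 RPKM in Scramble, 0.273 and 0.332 in Atf3KO, then 1.92 and 1.00 in JunKO and, in JunDKO, 18.4 and 15.4. JunDKO was above and Atf3KO below all the other iBMDM libraries. Thbs1 fell in Atf3KO by 1.55 ± 0.29 (adjusted p = 0.00475), a result that passed in all 16 alternatives (adjusted p = 4.86e-04 to 0.0447). Its read rate was 9.28-fold lower than in Scramble (exact 95% interval 5.57 to 16.0), on 21 reads against 61. JunKO differed from Scramble by -0.66 ± 0.29 (adjusted p = 0.629), and Atf3KO was lower than JunKO (-0.89 ± 0.29, adjusted p = 0.0426), a difference that is not firm. It was lost in 6 of 15 alternatives (adjusted p from 0.00854 to 0.955 over all), among them quantile normalization (-0.03) and leaving out Atf3KO replicate 1, Atf3KO replicate 2 or JunKO replicate 1 (adjusted p = 0.0928 to 0.169). Thbs1 met the filter through Scramble and JunDKO, where it is higher than in Atf3KO, and both tests of Atf3KO carry this limit. Without the filter the limma-trend adjusted p was 0.0104 against Scramble and 0.0593 against JunKO. With Atf3KO and JunKO alone in the fit Thbs1 was too low to be tested. In JunDKO the difference from Scramble was 2.22 ± 0.29, without a test. Platelets store thrombospondin, and of the 5 platelet and megakaryocyte markers listed Pf4 was higher in JunDKO too (258 and 297 RPKM, against 10.7 and 21.0 in Scramble). Pf4 was also above Scramble in Atf3KO (47.2 and 54.8 RPKM) and JunKO (62.4 and 58.0), whose Thbs1 levels were below those of Scramble. Ppbp measured 2.99 and 4.14 RPKM in JunDKO and had 0 reads in Scramble, Itga2b was at most 0.0320 RPKM, and Gp9 and Gp1bb had 0 reads in JunDKO; the summed level of the list was 261 to 301 RPKM in JunDKO and 10.7 to 21.0 in Scramble, and its part in the level of Thbs1 was not tested.

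Tgfbi measured 18.7 and 10.5 RPKM in Scramble, 22.3 and 20.6 in Atf3KO, then 16.1 and 10.5 in JunKO and, in JunDKO, 3.15 and 3.57. The Scramble and JunKO libraries overlapped, Atf3KO was above them and JunDKO below. The difference from Scramble was 0.57 ± 0.30 in Atf3KO (adjusted p = 0.153), -0.10 ± 0.30 in JunKO (adjusted p = 0.976) and -1.79 ± 0.30 in JunDKO (no test), and that of Atf3KO from JunKO was 0.68 ± 0.30 (adjusted p = 0.108). Because the Scramble libraries were far apart, the JunDKO difference was -1.41 without Scramble replicate 1 and -2.18 without Scramble replicate 2.

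Fn1 and Vcan were near the limit of detection in iBMDMs and were not tested there. Fn1 had 1 and 0 reads in the Scramble libraries, 4 and 19 in Atf3KO, then 18 and 3 in JunKO, with 0 in both JunDKO libraries, where the depth allows up to 0.0191 RPKM. In JunKO its read rate was 22.4-fold that of Scramble (exact 95% interval 3.60 to 925), but 18 of the 21 reads came from JunKO replicate 1 (1.35 RPKM, against 0.223 in replicate 2), so this rests on 1 library. Vcan measured 0.163 and 0.245 RPKM in Scramble, 0 and 0.0140 in Atf3KO, then 0.185 and 0 in JunKO and, in JunDKO, 0.473 and 0.478. Its read rate in JunDKO was 2.37-fold that of Scramble (exact 95% interval 1.10 to 6.05; 0.702 to 7.83 with JunDKO replicate 1 alone), and in Atf3KO it was 22.4-fold lower than in Scramble (2.87 to 1008) on 1 read against 7.

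The counts over the 10 genes were read against those over all genes. Calling required 3 things: an adjusted p under 0.05, a change of at least 2-fold, and 16 RPKM or more in either group. In Atf3KO, where 12.5% of 10691 tested models were called and 41.2% passed the adjusted p alone, 0 of the 4 tested members other than Lox were called (Thbs1 was below 16 RPKM and Spp1 below 2-fold) and 2 passed, both lower. At an unadjusted p under 0.05 there were 2, beside 5543 of the 10691 models, and limma-voom on the recovered reads also passed 2. In JunKO 0.196% of models were called and 0.281% passed, and 0 of these 4 members passed by limma-trend or by limma-voom (2, Thbs1 and Spp1, had an unadjusted p under 0.05, beside 842 of the 10691 models). Between Atf3KO and JunKO 9.71% were called and 35.5% passed, and of 5 tested members 1 (Spp1) was called and 2 (Spp1 and Thbs1) passed. Thbs1 is in these counts because it met the filter through Scramble and JunDKO. In JunDKO 4.97% of models were called against Scramble. Lox, Thbs1 and Spp1 were past the 2-fold and 16 RPKM limits, given as a description without an adjusted p. Since the choice of Lox used this contrast, nothing is read from that count. Libraries did not overlap between groups for 4 of the 4 members in Atf3KO (70.8% of all models), 2 of 4 in JunKO (37.2%), 4 of 5 between Atf3KO and JunKO (68.7%) and 5 of 5 in JunDKO (61.6%). With shares this high among all genes, a lack of overlap between 2 pairs of libraries says little about a member. The other 5 members were below the mean of 1 RPKM that the test required.

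**Figure D2:**
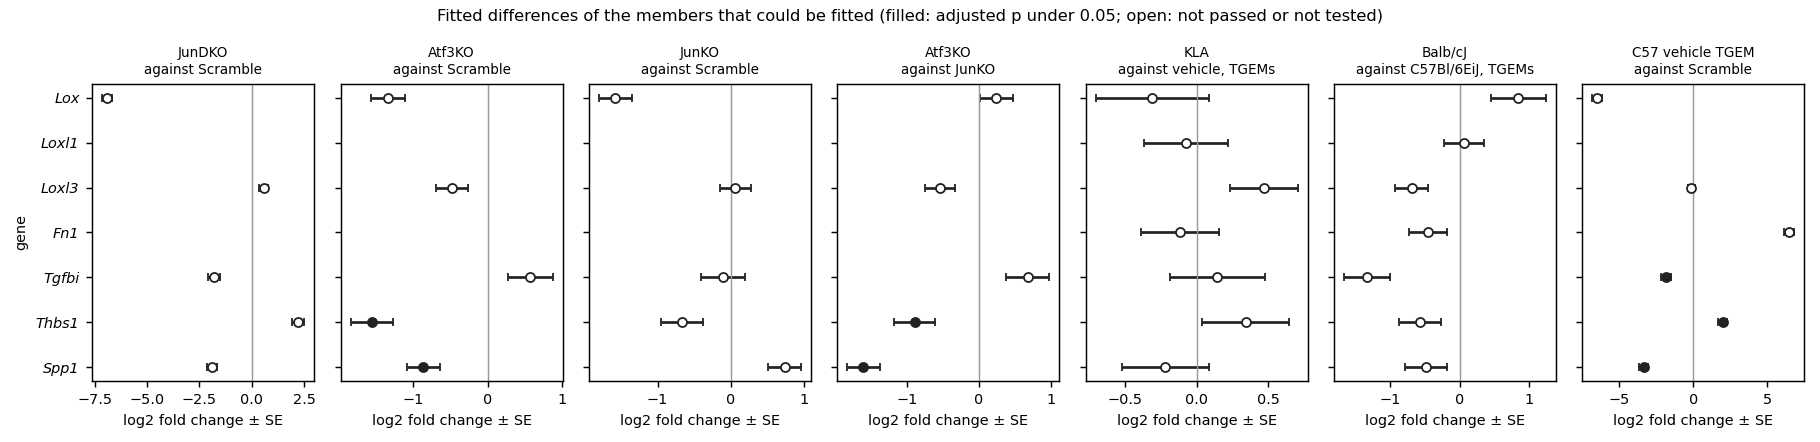
Fitted log2 fold change of log2(RPKM + 1) with its SE (bars) for the 7 members that could be fitted in at least 1 of 7 comparisons; the horizontal scale differs between panels. Filled points had an adjusted p under 0.05 and open points did not pass or, in JunDKO, for Lox in comparisons with Scramble and for Fn1 in TGEMs against Scramble, were not tested. Spp1 and Thbs1 pass as lower in Atf3KO than in Scramble and in JunKO. Of these, Thbs1 against JunKO was lost in 6 of 15 alternatives and Spp1 against Scramble in 7 of 16. Thbs1 met the filter through Scramble and JunDKO, where it is higher. No member passes for KLA or strain.

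Other matrix genes of the iBMDMs were taken from lists of 20 collagen chains, 28 genes of collagen and elastin processing, 45 other matrix proteins, 22 matrix receptors and 23 measured genes of TGF-beta signalling. None of the 20 collagen chains, the main substrates of lysyl oxidases, reached the mean required for a test; their summed level was at most 1.28 RPKM in any iBMDM library. For comparison, 41.2% of all tested models passed in Atf3KO. Of 12 tested processing genes 2 rose and 1 fell in Atf3KO, among them the lysyl hydroxylase Plod1 (50.8 and 60.3 RPKM against 26.5 and 20.8; adjusted p = 0.00503) and the transglutaminase Tgm2, which crosslinks fibronectin (40.2 and 54.5 against 113 and 80.0; adjusted p = 0.0135). Of 8 tested matrix proteins other than the members 5 rose and 3 fell, with the secreted glycoprotein Ecm1 and the elastin fibre protein Emilin1 among the first (log2 differences 1.44 ± 0.30 and 1.63 ± 0.33; adjusted p = 0.00739 and 0.0066). Of 17 tested receptors 3 rose and 8 fell, with Cd36, a receptor of thrombospondin, at 12.3 and 8.29 RPKM in Atf3KO against 110 and 156 in Scramble (adjusted p = 1.10e-04). Itgb5, an integrin chain that binds vitronectin, rose from 27.5 and 23.1 to 65.0 and 85.6 RPKM (adjusted p = 0.00117). Of 15 tested genes of TGF-beta signalling 4 rose and 4 fell, among the latter the receptor chain Tgfbr1 (-1.29, adjusted p = 0.0038). The median log2 difference was 0.33 for the processing genes, 1.08 for the matrix proteins, -0.36 for the receptors and -0.02 for TGF-beta signalling, beside 0.05 for all tested models. These values move with the GC trend of the Atf3KO libraries: with it removed, the medians were 0.0274, 0.48, -0.00469 and -0.0610, and 1 processing gene rose and 2 fell, 4 matrix proteins rose and 2 fell, 5 receptors rose and 7 fell, and 1 TGF-beta gene rose and 3 fell. Plod1, Tgm2, Ecm1, Emilin1, Cd36, Itgb5 and Tgfbr1 kept their direction and passed there too, with Cd36 at -2.63 and Tgm2 at -1.56. Plod1 (0.68), Ecm1 (0.75), Emilin1 (0.70), Itgb5 (0.95) and Tgfbr1 (-0.59) were then short of a 2-fold change. In JunKO 0 of the 12 processing genes, 8 matrix proteins, 17 receptors and 15 TGF-beta genes passed by limma-trend or limma-voom, with 4, 1, 0 and 1 at an unadjusted p under 0.05 (842 of all 10691 models). Between Atf3KO and JunKO, where 35.5% of all models passed, 2 of the 12 processing genes were lower in Atf3KO, 4 of the 8 matrix proteins were higher and 1 lower, 4 of the 17 receptors were higher and 6 lower, and 4 of the 15 TGF-beta genes were higher and 2 lower. These fold changes followed GC content as well (Spearman's rho 0.50). With that trend removed, 0 processing genes were higher and 4 lower, matrix proteins 3 and 2, receptors 4 and 6, and TGF-beta genes 1 and 1. In JunDKO, as a description, 4 receptors were past the limits of a call as higher and 1 as lower, 0 processing genes as higher and 3 as lower, 0 matrix proteins as higher and 1 (Srgn, -2.23) as lower, and 2 TGF-beta genes as higher and 0 as lower, where 4.97% of all models were called. The laminin receptor chain Itga6 measured 130 and 139 RPKM against 20.6 and 26.4 in Scramble, and Itgb5 125 and 122. Itgav, the partner chain of Itgb5, measured 91.4 and 97.2 against 21.5 and 30.6 in Scramble, but 11.2 and 9.52 in Atf3KO. The collagen prolyl hydroxylase subunits P4ha1 and P4hb measured 24.3 and 26.8 against 60.9 and 64.6, and 279 and 243 against 644 and 516.

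The primary macrophages had a different set of matrix RNAs. In the C57Bl/6EiJ vehicle TGEM library Fn1 measured 81.9 RPKM, and it was 54.5 to 95.2 RPKM in the 5 TGEM libraries, all above the iBMDM libraries. Its fitted difference from Scramble on the log2(RPKM + 1) scale was 6.49 ± 0.33 in a fit of all 13 libraries with terms for KLA and strain. Fn1 reached the mean of 1 RPKM needed for that fit only through the TGEM libraries, where it is high, so this is given as a description with no test. Its read rate ratio was 2338 (exact 95% interval 419 to 92344) because Scramble held 1 read. Spp1 measured 963 RPKM in that library and was lower than in Scramble (-3.32 ± 0.30, adjusted p = 1.41e-05). Tgfbi (3.63 RPKM) was lower (-1.86 ± 0.34, adjusted p = 0.00141) and Thbs1 (15.997 RPKM, just under the 16 RPKM of a call) higher (1.99 ± 0.33, adjusted p = 6.86e-04). Loxl3 (5.76 RPKM) differed by -0.13 ± 0.23 (adjusted p = 0.673). Lox was at 0.294 RPKM in the vehicle library, and its fitted difference, -6.48 ± 0.32, is given without a test as it uses the Scramble libraries. Of all 10929 models 21.1% were called and 46.3% passed in this comparison, and of the 4 members tested, with Lox and Fn1 left out, 1 (Spp1) was called and 3 (Spp1, Tgfbi and Thbs1) passed. Because the fit takes KLA and strain as additive terms, these differences are estimates for C57Bl/6EiJ vehicle cells that draw on all 5 TGEM libraries. Taken from the vehicle library alone, with no test, the difference from the Scramble mean was 6.33 for Fn1, -3.32 for Spp1, -1.70 for Tgfbi, 2.15 for Thbs1, -0.0476 for Loxl3 and -6.73 for Lox. Cell kind, immortalisation and preparation cannot be told apart.

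Loxl1 and Loxl2, with no read in iBMDMs, were found in every TGEM library. Loxl1 measured 1.63 RPKM in C57Bl/6EiJ vehicle, 1.66 in C57Bl/6EiJ KLA, 1.92 in Balb/cJ vehicle, and 1.79 and 1.51 in Balb/cJ KLA, an even level. Loxl2 measured 0.543, 0.595, 1.65, 1.06 and 0.441 RPKM in the same order. Pooled over the 5 libraries their read rates were at least 73.0-fold and 54.0-fold higher than in the 8 iBMDM libraries, with 3 reads over those 8 as the bound, and at least 38.2-fold and 28.3-fold higher without JunDKO replicate 2. In a bulk sample fewer cells of a type and less RNA per cell cannot be told apart, and markers differed between the cell kinds. Of the 8 macrophage markers 5 (Adgre1, Csf1r, Lyz2, Itgam and Fcgr1) were lower in every TGEM library than in every iBMDM library and 1 (Cd68) was higher, and their summed level was 8015 to 11010 RPKM in TGEMs and 16830 to 33030 in iBMDMs. The TGEM libraries also held markers of other cells. All 8 fibroblast markers had reads in 4 of the 5 libraries and 7 in the other, where Lum had 0, and their summed level was 43.3 to 86.4 RPKM, against 0 to 0.749 in iBMDMs, where Col1a1, Lum, Pdgfra and Col6a3 had 0 reads. All 6 mesothelial markers had reads in each (summed 6.03 to 12.1 RPKM) and none in any iBMDM library. In the comparison of C57Bl/6EiJ vehicle with Scramble, where 46.3% of all models passed, only 6 of the 20 collagen chains met the filter, and they did so through the TGEM libraries, so they are described without a test. Col1a2 measured 20.3 RPKM against 0 and 0.115, and the proteoglycan Dcn, one of the fibroblast markers like Col1a2, measured 16.4 RPKM against 0.276 and 0.311. Of 15 tested matrix proteins 9 were higher and 2 lower in that comparison, of 15 processing genes 6 and 6, of 18 receptors 5 and 7, and of 16 TGF-beta genes 8 and 1. Fold changes there followed GC content too (Spearman's rho 0.41 across 10848 models). With this trend removed the counts were 9 and 4, 4 and 8, 6 and 4, and 6 and 1 in the same order. Listed genes that are near 0 in iBMDMs, such as Dcn, also met the filter through TGEMs, so these counts are no support for a direction. The summed markers of B cells (10.1 to 23.9 RPKM in TGEMs and at most 0.488 in iBMDMs), mast cells (1.78 to 13.6 and at most 0.264) and endothelial cells (2.16 to 6.60 and at most 0.687) were higher as well. The endothelial sum rests mainly on Kdr (1.80 to 5.28 RPKM in TGEMs). Cdh5 (at most 0.322 RPKM in TGEMs and 0.687 in iBMDMs) and Pecam1 overlapped between the cell kinds, and Tek had 0 reads. The part of any of these cells in the levels of Loxl1, Loxl2, Lox and Fn1 was not tested.

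The 1 h KLA treatment left no member past the threshold. Lox measured 0.294 RPKM in vehicle and 0.482 after KLA in C57Bl/6EiJ, and 2.29 in vehicle and 1.48 and 0.680 after KLA in Balb/cJ. Loxl3 measured 5.76 and 7.39 RPKM in C57Bl/6EiJ vehicle and KLA, and 2.75 in Balb/cJ vehicle against 4.64 in both KLA libraries. Thbs1 measured 16.0 and 16.3 RPKM in C57Bl/6EiJ vehicle and KLA, and 8.14 against 16.4 and 9.76 in Balb/cJ. Vehicle and KLA libraries overlapped for all 7 tested members (libraries did not overlap for 23.7% of models). The fitted effects of KLA were -0.31 ± 0.40 for Lox, -0.08 ± 0.29 for Loxl1, 0.47 ± 0.24 for Loxl3, -0.12 ± 0.27 for Fn1, 0.14 ± 0.33 for Tgfbi, 0.34 ± 0.30 for Thbs1 and -0.22 ± 0.30 for Spp1. The adjusted p was 0.388 for Loxl3, the smallest of the 7. In this comparison 1.13% of 10357 models were called and 1.53% passed, while 0 of 7 members passed by limma-trend, by limma-voom or at an unadjusted p under 0.05 (1553 of all models). The fit had 2 residual degrees of freedom, and the SEs of 0.24 to 0.40 set how small a change could be seen. Of the listed genes 1 of 17 receptors and 2 of 19 TGF-beta genes rose, and 0 of 9 collagens, 19 processing genes and 17 matrix proteins passed by limma-trend (0, 1 and 2 at an unadjusted p under 0.05; 0, 1 and 0 by limma-voom). Skil, a repressor of SMAD proteins, rose from 4.64 to 19.0 RPKM in C57Bl/6EiJ and from 3.89 to 36.7 and 23.7 in Balb/cJ (adjusted p = 0.0138), and the syndecan Sdc4 from 26.3 to 173 and from 11.0 to 444 and 267 (adjusted p = 0.0104). The KLA replicate 2 library of Balb/cJ bears another date than the vehicle library. Within the earlier Balb/cJ date the KLA minus vehicle differences were 0.93 for Thbs1, 0.61 for Tgfbi, 0.59 for Loxl3 and -0.41 for Lox, from 1 library each.

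No member passed the threshold between the strains. Tgfbi measured 3.63 and 3.12 RPKM in the C57Bl/6EiJ libraries and 0.482, 1.27 and 0.629 in Balb/cJ, with no overlap, and the fitted difference was -1.33 ± 0.33 (adjusted p = 0.0891). It met the filter through C57Bl/6EiJ, where it is higher (mean 3.37 RPKM, against 0.792 in Balb/cJ), and the Balb/cJ vehicle value rests on 3 reads. Spp1 measured 963 and 819 RPKM in C57Bl/6EiJ and 679, 757 and 455 in Balb/cJ (-0.49 ± 0.30, adjusted p = 0.384). Fn1 measured 81.9 and 95.2 against 75.3, 61.8 and 54.5 RPKM (-0.45 ± 0.27, adjusted p = 0.375), and the differences were -0.69 ± 0.24 for Loxl3 (adjusted p = 0.161) and -0.57 ± 0.30 for Thbs1 (adjusted p = 0.319). Lox had the opposite sign, with 0.294 and 0.482 RPKM in C57Bl/6EiJ and 2.29, 1.48 and 0.680 in Balb/cJ (0.84 ± 0.40, adjusted p = 0.273). It met the filter through Balb/cJ, where it is higher (mean 1.48 RPKM, against 0.388 in C57Bl/6EiJ). Loxl1 differed by 0.06 ± 0.29 (adjusted p = 0.922). Strains did not overlap for 5 of these 7 members, and for 35.1% of all models. Of all models 1.16% were called and 2.31% passed, and 0 of 7 members passed by limma-trend or limma-voom (2, Loxl3 and Tgfbi, at an unadjusted p under 0.05, beside 2213 of 10357 models). The libraries of the 2 strains bear different dates in their titles and their reads were aligned to different genomes, so strain, date and alignment cannot be told apart; fold changes between the strains also followed GC content (Spearman's rho -0.45 across 10286 models). Of the listed genes 2 of 17 matrix proteins, 3 of 17 receptors and 1 of 19 TGF-beta genes were lower in Balb/cJ, and 0 of 9 collagens and 19 processing genes passed by limma-trend (0 and 2 at an unadjusted p under 0.05; 0 and 0 by limma-voom). Those with the largest change in their lists were the phosphatidylserine binding Mfge8 (1841 and 1946 RPKM in C57Bl/6EiJ against 108, 186 and 170 in Balb/cJ; adjusted p = 0.00152) and the integrin chain Itgb3 (19.6 and 15.7 against 3.04, 4.95 and 4.64; adjusted p = 0.0196).

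**Figure D3:**
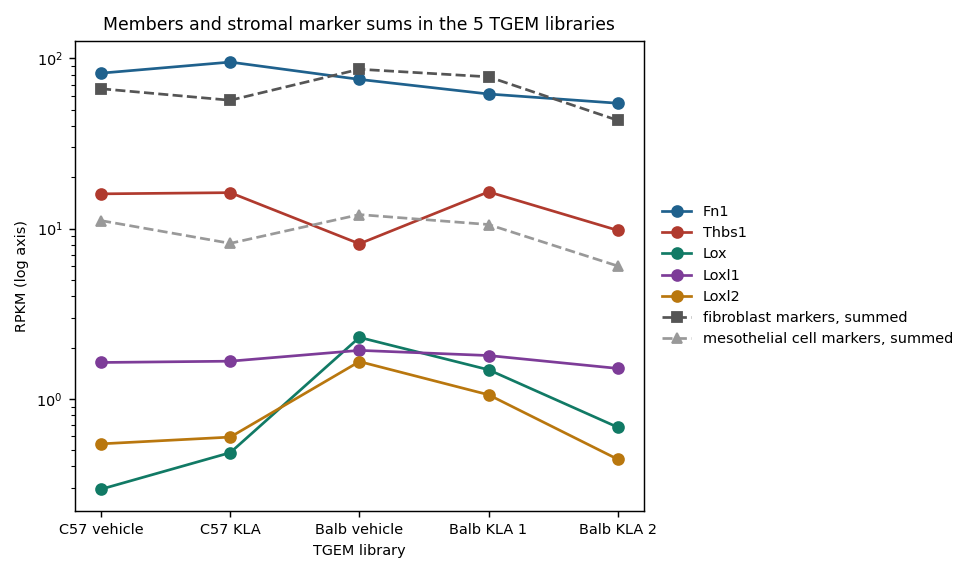
RPKM (log axis) of Fn1, Thbs1, Lox, Loxl1 and Loxl2 in each of the 5 TGEM libraries (solid lines join the libraries for each gene), with the summed RPKM of 8 fibroblast and 6 mesothelial markers (dashed). Lox, Loxl2 and both marker sums are highest in the Balb/cJ vehicle library (Lox 2.29 RPKM, fibroblast sum 86.4 RPKM, of which Dcn is 34.6), whereas Fn1 is highest in C57Bl/6EiJ KLA (95.2 RPKM) and Thbs1 is lowest in Balb/cJ vehicle (8.14 RPKM).

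The Balb/cJ vehicle library had the most Lox, Loxl1 and Loxl2 RNA of the 5 TGEM libraries (on 24, 15 and 20 reads), though Loxl1 was nearly even (1.51 to 1.92 RPKM). This library also had the highest fibroblast and mesothelial marker sums (86.4 and 12.1 RPKM). Its fibroblast sum rests on Dcn (34.6 RPKM): without Dcn it was 51.8 RPKM, against 53.6 in Balb/cJ KLA replicate 1 and 49.9 in C57Bl/6EiJ vehicle, so it was then no longer the highest. Balb/cJ KLA replicate 2 had the least Loxl1 and Loxl2 and the lowest sums (43.3 and 6.03 RPKM). The 2 C57Bl/6EiJ libraries had sums between these (fibroblast 66.3 and 56.8 RPKM) and the least Lox. Whether these markers account for any of the strain or KLA differences of the family was not tested.

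The genes whose levels were most like those of Lox were Fpr1 (Pearson's r 0.97), Cd300e (0.97), Lcn2 (0.96), C3 (0.96) and Irak3 (0.96), over 13 libraries and among 6386 models on the log2(RPKM + 1) scale. Fpr1, a formyl peptide receptor, measured 123 and 93.9 RPKM in Scramble, 0.976 and 0.288 in JunDKO, and 0 in every TGEM library. Lcn2, which binds bacterial iron carriers, was at 929 to 1423 RPKM in Scramble, Atf3KO and JunKO, and at 3.05 and 0 in JunDKO. The libraries of a group are not independent points, and these coefficients are set by the step between 6 iBMDM libraries and the other 7. Unlike Lox, Lcn2 and C3 were not lower in Atf3KO than in both Scramble libraries. The most alike models were Amz1, Cd200 and Gprc5b for Fn1 (r 0.99 each), Slc35b1, Arf1 and Pilrb2 for Tgfbi (0.96 to 0.98), Tns3 (0.96) and Scarb2 (0.95) for Thbs1, and Fam162a, Serp1 and Hdlbp for Spp1 (0.98 each).

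**Figure D4:**
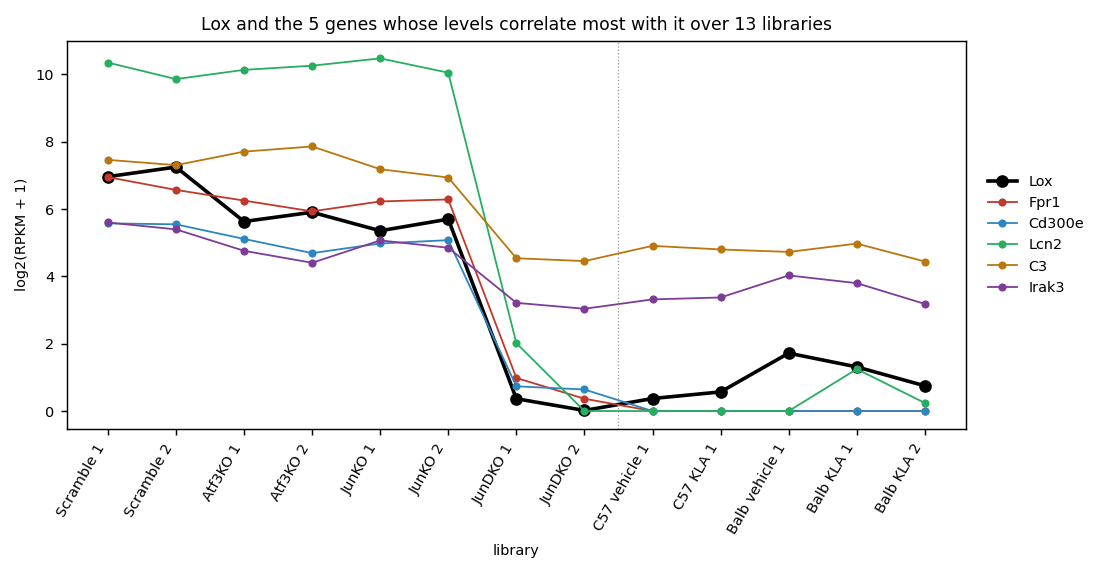
log2(RPKM + 1) of Lox (black) and of the 5 genes whose levels correlate most with it, in each of the 13 libraries (iBMDMs left of the dotted line). All 6 genes step down between the JunKO and JunDKO libraries and stay low in TGEMs, and Fpr1, Cd300e and Lcn2 reach 0 RPKM in TGEM libraries where Lox is at 0.294 to 2.29 RPKM.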

How the data were processed

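PolyA RNA-seq of 13 libraries was analysed; 4 GRO-seq samples were not analysed here. The deposited values are RPKM. Per the labels and the file headers, the authors ran STAR with default parameters. C57Bl/6EiJ reads went to mm10 and Balb/cJ reads to a strain genome whose positions were then shifted to mm10. RPKM were computed with HOMER analyzeRepeats over exons with genes condensed. Versions and strand use are not given in the sources used here. The authors' methods name edgeR, which was not used here because the deposited values are not counts.

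RPKM multiplied by exonic length moves in steps of 1 read, and 100% of values up to 50 reads lay within 0.05 of a whole number or the rounding of the RPKM value; this gave the depth of each library (1553296 to 18444368 reads) and the reads behind each value. limma-trend was applied to models averaging 1 RPKM or more in the fitted libraries, on log2(RPKM + 1), a scale that understates changes of low genes. Fits held the 4 iBMDM groups (8 libraries), treatment and strain (5 TGEM libraries), or all 13 libraries. Tests were two-sided, with Benjamini-Hochberg adjustment across every tested model. Called genes had an adjusted p under 0.05, a 2-fold change and at least 16 RPKM in either group. Libraries are taken as replicates by their labels; title dates differ within Atf3KO and Balb/cJ KLA, and for the other groups the labels do not say whether cultures were separate, so p values measure the spread between libraries, which may be technical. Groups with 0 reads were bounded by 3 reads, and exact binomial 95% intervals of read rates cover counting error only. Promoters are RefSeq windows of GRCm38.p6. The fits were tested on simulated data. The members, gene lists, markers and tests were chosen with earlier results of these data known. Named were the members, the targeted genes, up to 4 called genes with the largest change per list and comparison, and the models most alike by Pearson's r (5 for Lox, 3 for Fn1, Tgfbi, Thbs1 and Spp1). Some genes that this rule names are not reported here.

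Replicate numbers were not taken to pair the iBMDM libraries: with 2 replicates per group, the correlation of replicate differences was 0.18 to 0.22 among Scramble, JunKO and JunDKO, which share a title date, and -0.21 to -0.12 between these and Atf3KO, and the labels give the numbers no shared origin. The fits used limma 3.58.1 in R 4.3.3; the remaining steps used pandas 2.3.3, numpy 2.4.6 and scipy 1.17.1 under Python 3.11.15, and plots matplotlib 3.10.9. Alternatives were the pseudocount, filter, scaling, limma-voom, call limits, a GC correction (natural spline, 5 degrees of freedom), a replicate block, date and each library left out.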

Additional observations from a re-analysis of the deposited data

Results flagged for a closer look

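In 6 members the C57Bl/6EiJ KLA library moved against vehicle in the opposite direction to both Balb/cJ KLA libraries, on the log2(RPKM + 1) scale. The C57Bl/6EiJ difference was 0.20 for Lox (Balb/cJ -0.41 and -0.97), 0.0158 for Loxl1 (-0.0656 and -0.22), 0.0478 for Loxl2 (-0.37 and -0.88), 0.21 for Fn1 (-0.28 and -0.46), -0.17 for Tgfbi (0.61 and 0.14) and 0.40 for Vcan (-0.25 and -0.37). Apart from Fn1, these rest on few reads, so counting error is large. In C57Bl/6EiJ vehicle and KLA there were 15 and 7 reads of Lox, 32 and 10 of Loxl2, and 3 and 11 of Vcan. Balb/cJ vehicle held 3 reads of Tgfbi. Both Balb/cJ differences share 1 vehicle library, which also had the highest mesothelial marker sum and, only with Dcn counted, the highest fibroblast sum; the part of these markers was not tested. In a limma fit with an interaction of treatment and strain, which left 1 residual degree of freedom, the difference between the strains had an adjusted p of 0.724 for Lox, 0.955 for Loxl1, 0.833 for Fn1 and 0.833 for Tgfbi; for Loxl2 and Vcan, which are below the filter, the difference was not tested. In that limma-trend fit 0 of 10357 models passed, and 835 had an unadjusted p under 0.05.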

How the results depend on the processing

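Of the recomputed counts of called members 99 stayed within 1.5 times the reported value and 6 did not. Without the RPKM minimum the called members were 1 in Atf3KO and 4 in TGEMs against Scramble, against 0 and, with Fn1 counted, 2; between Atf3KO and JunKO the 1 call was 0 without the filter on low values and 0 at a log2 fold change of at least 2. Leaving out 1 library gave 0 to 1 in Atf3KO (1 without Atf3KO replicate 1), 0 to 0 in JunKO, 1 to 1 between Atf3KO and JunKO, 2 to 4 in JunDKO, 0 to 0 for KLA and strain, and 1 to 3 in TGEMs against Scramble (1 without the C57Bl/6EiJ vehicle library, where the 16 RPKM limit is read on Scramble alone).

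Small differences that did not pass changed sign in 16 recomputations. Leaving out 1 library moved the JunKO difference of Loxl3 from -0.0734 (without JunKO replicate 1) to 0.192, and of Tgfbi from -0.489 to 0.282 (0.181 without JunKO replicate 2, 0.282 without Scramble replicate 1). It moved the KLA difference of Loxl1 from -0.144 to 0.0158, of Fn1 from -0.370 to 0.214 (both upper values without the Balb/cJ vehicle library), and of Tgfbi from -0.167 (without Balb/cJ vehicle; -0.0153 without Balb/cJ KLA replicate 1) to 0.374. It moved the strain difference of Loxl1 from -0.00836 (without either vehicle library, and in the KLA libraries alone) to 0.151. With equal library medians the KLA difference was 0.0614 for Loxl1 and 0.0171 for Fn1, and Loxl3 in TGEMs against Scramble was 0.135. With quantile normalization Loxl1 was 0.0513 for KLA and Loxl3 0.171 in TGEMs, and with limma-voom Tgfbi was -0.0128 for KLA. The cause was not tested.

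The replicate block left the member counts at 0 (Atf3KO), 0 (JunKO), 1 (Atf3KO against JunKO) and 3 (JunDKO); over all models it gave 1320, 8, 1028 and 506 calls, against 1339, 21, 1038 and 531. With the Atf3KO numbers crossed, an alternative chosen after seeing the data, the calls were 1391, 42, 1096 and 563. The read-rate ratios without JunDKO replicate 2, the GC correction of the gene lists and the fibroblast sum without Dcn were also chosen after seeing the data. The fitted size of the Lox difference in JunDKO is set by the pseudocount, at -9.36 with 0.1 RPKM and -4.78 with 5 RPKM. Depth limits Loxl4, Vcan and, in iBMDMs, Fn1, Loxl1 and Loxl2 to read counts with counting error.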
